A study of Mus musculus with 12 samples.

Results

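Expression of 9 genes of intestinal ion transport was examined in distal ileal tissue of the inbred mouse strain BALB/c. The genes were chosen by symbol, as the guanylin peptides Guca2a and Guca2b and the transporters and channels Slc9a3, Slc9a2, Slc26a3, Slc26a6, Cftr, Slc12a2 and Kcnq1. All 9 were found among the 45808 genes of the table. RNA from ileal tissue was sequenced in 12 libraries, 6 from a group treated with Porphyromonas gingivalis, an oral bacterium associated with periodontitis, and 6 from controls given phosphate-buffered saline (PBS). The labels name no other agent or allele and no age. How the bacterium was given, how much and for how long are not stated in the labels, and neither is the number of mice. The p-values therefore measure the spread between these libraries, which may in part be technical. By its title, the series concerns intestinal inflammation under P. gingivalis.

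The ileal epithelium absorbs sodium and chloride through paired exchangers in the villus membrane and secretes chloride and bicarbonate, with water following, mostly from the crypts. Guanylin and uroguanylin are peptides released into the lumen that bind the guanylate cyclase receptor encoded by Gucy2c. The cyclic GMP made by this receptor opens the chloride channel encoded by Cftr and inhibits sodium uptake by the exchanger encoded by Slc9a3. Slc12a2 encodes the basolateral cotransporter that loads cells with chloride, and Kcnq1 encodes a basolateral potassium channel that sustains the electrical drive for secretion. In rodents guanylin is best known from the distal gut and uroguanylin from the upper small intestine.

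Guca2a and Guca2b are neighbours that point towards each other, with 17135 bases between their 3′ ends on chromosome 4. Guca2a lies on the plus strand from 119637704 to 119639471 and Guca2b on the minus strand from 119656607 to 119658954 (GRCm38). The bases before the RefSeq start of both genes are shown because their transcripts took different courses across libraries, and those of Slc9a3 because it varied most. RefSeq starts differ from the gene limits given here, so the Guca2a and Guca2b windows run a short way into the annotated genes. The 250 bases upstream of each RefSeq start (GRCm38.p6) are given 5′ to 3′ on the strand of the gene. Capitals mark matches to 4 short words, searched on both strands. AGATAA is the core of GATA-type motifs. GTTAAT is one arm of the palindrome bound by HNF1-type factors. TTTATG is a word of CDX-type motifs. CAAAGTCCA is a common form of the HNF4-type motif.
Guca2a, chr4:119637482-119637731, plus strand: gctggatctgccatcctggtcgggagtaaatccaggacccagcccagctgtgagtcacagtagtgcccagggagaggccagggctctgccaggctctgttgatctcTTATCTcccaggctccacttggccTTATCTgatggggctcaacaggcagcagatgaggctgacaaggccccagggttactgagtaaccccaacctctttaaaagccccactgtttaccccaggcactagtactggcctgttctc
Guca2b, chr4:119658946-119659195, minus strand: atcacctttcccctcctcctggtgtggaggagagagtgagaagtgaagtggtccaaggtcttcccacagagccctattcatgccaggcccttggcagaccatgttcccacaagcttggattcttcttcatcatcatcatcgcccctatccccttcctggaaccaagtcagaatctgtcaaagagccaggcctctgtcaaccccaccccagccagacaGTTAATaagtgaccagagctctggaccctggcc
Slc9a3, chr13:74121163-74121412, plus strand: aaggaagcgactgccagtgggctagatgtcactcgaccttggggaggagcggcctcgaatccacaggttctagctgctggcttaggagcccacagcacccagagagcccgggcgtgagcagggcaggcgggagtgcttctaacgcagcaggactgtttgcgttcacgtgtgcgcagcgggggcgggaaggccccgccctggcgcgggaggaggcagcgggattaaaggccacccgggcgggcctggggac

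The Guca2a window held AGATAA 2 times on the reverse strand, from base -144 to -139 and from base -120 to -115 counted from the RefSeq start. AGATAA occurred in 9.99% of all 32851 windows of this length. The Guca2b window held GTTAAT once, from base -33 to -28, a word found in 6.43% of windows. The window of Slc26a3 held GTTAAT 2 times, and no marked word overlapped another. TTTATG, found in 10.8% of windows, and CAAAGTCCA, found in 0.384%, were in none of the 6 windows matched. The windows of Slc9a3, Slc26a6 and Cftr had no match to any of the 4 words. Base composition also differed within the family. The windows of Guca2a, Guca2b and Slc26a3 held 1 CpG dinucleotide each, against 9 in Slc26a6, 19 in Slc9a3 and 30 in Cftr, where the median of all windows was 6. These matches are descriptions of letters, and binding was not measured. Slc9a2, Slc12a2 and Kcnq1 were without a window. The windows of Slc26a3, from 31437969 to 31438218, and of Slc26a6, from 108853793 to 108854042, lie inside the gene limits given below.

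The other genes lie apart from one another in GRCm38. Slc9a3 lies on chromosome 13 from 74121457 to 74169442, Slc9a2 on chromosome 1 from 40680574 to 40769273 and Kcnq1 on chromosome 7 from 143106362 to 143427042. Slc26a3 lies on chromosome 12 from 31390871 to 31473917 and Slc26a6 on chromosome 9 from 108853283 to 108913049. Cftr lies on chromosome 6 from 18170687 to 18322768 and Slc12a2 on chromosome 18 from 57878678 to 57946821. The annotation calls each of the 9 a protein coding gene, and isoforms were not separated. Kcnq1 shares 121 exonic bases, 2.96% of its own, with the antisense RNA Kcnq1ot1, which ranged from 278 to 1034 normalized counts. Whether counting used strand is not stated, so reads from those shared bases cannot be told apart.

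Several libraries stood apart, and this bears on the genes described here. The ileal bile acid binding protein Fabp6 was nearly absent from 3 libraries, with 2.52 and 16.0 normalized counts in P. gingivalis replicates 1 and 5 and 4.32 in PBS replicate 6. The other 9 libraries held 11246 to 69383. Fabp1 marks the upper small intestine. In P. gingivalis replicates 1 and 5 and PBS replicate 6 it reached 26745, 21996 and 16938 normalized counts, and elsewhere no more than 1821. By these markers the 3 libraries go against the distal ileal label. P. gingivalis replicate 6 lay at the other end, with Fabp1 at 18.3, Gata4 at 0 and the large bowel marker Car1 at 498, against at most 2.71 elsewhere. The summed level of 6 epithelial markers ran from 47538 to 99253 after P. gingivalis and from 65850 to 79679 in PBS. Epcam and Krt8 were lowest in P. gingivalis replicate 1, and Cdh1, Krt20, Vil1 and Cdx2 in P. gingivalis replicate 6. Vil1 stood at 8625 there. The summed level of 5 smooth muscle markers ran from 6034 to 22136 after P. gingivalis and from 9757 to 16429 in PBS. All 5 were highest in P. gingivalis replicate 6, with Myh11 at 13547. The summed level of 4 mesothelial markers ran from 26.5 to 66.3 after P. gingivalis and from 78.6 to 206 in PBS, and that of 5 fat cell markers from 0 to 873 after P. gingivalis and from 511 to 2682 in PBS. The part of these other tissues in the values below was not tested. In whole tissue, fewer cells of a type and less RNA per cell cannot be told apart. Depth ran from 6553306 to 9875045 reads after P. gingivalis and from 7610970 to 10378841 reads in PBS.

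No gene of this family differed between the groups past the threshold. Of the 9 genes, limma called 0 at an adjusted p of 0.05, where it called 0% of all 15025 genes tested, and 0 of the 9 had an unadjusted p under 0.05, against 3.73% of all genes. DESeq2 and edgeR, run on whole reads recovered from the values, also called 0 of the 9, with 0 at an unadjusted p under 0.05 in each, where DESeq2 called 0.181% and edgeR 0% of all genes. All 9 genes passed the filter on low values, a mean normalized count of at least 10. For every one of the 9 the libraries of both groups overlapped, while 0.166% of all tested genes had no overlap. On the log2(normalized count + 1) scale the differences, P. gingivalis minus PBS, ran from -0.39 to 0.42 with a median of -0.034, beside a median of -0.0039 over all tested genes. What varied was the level from library to library within each group.

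**Figure D1:**
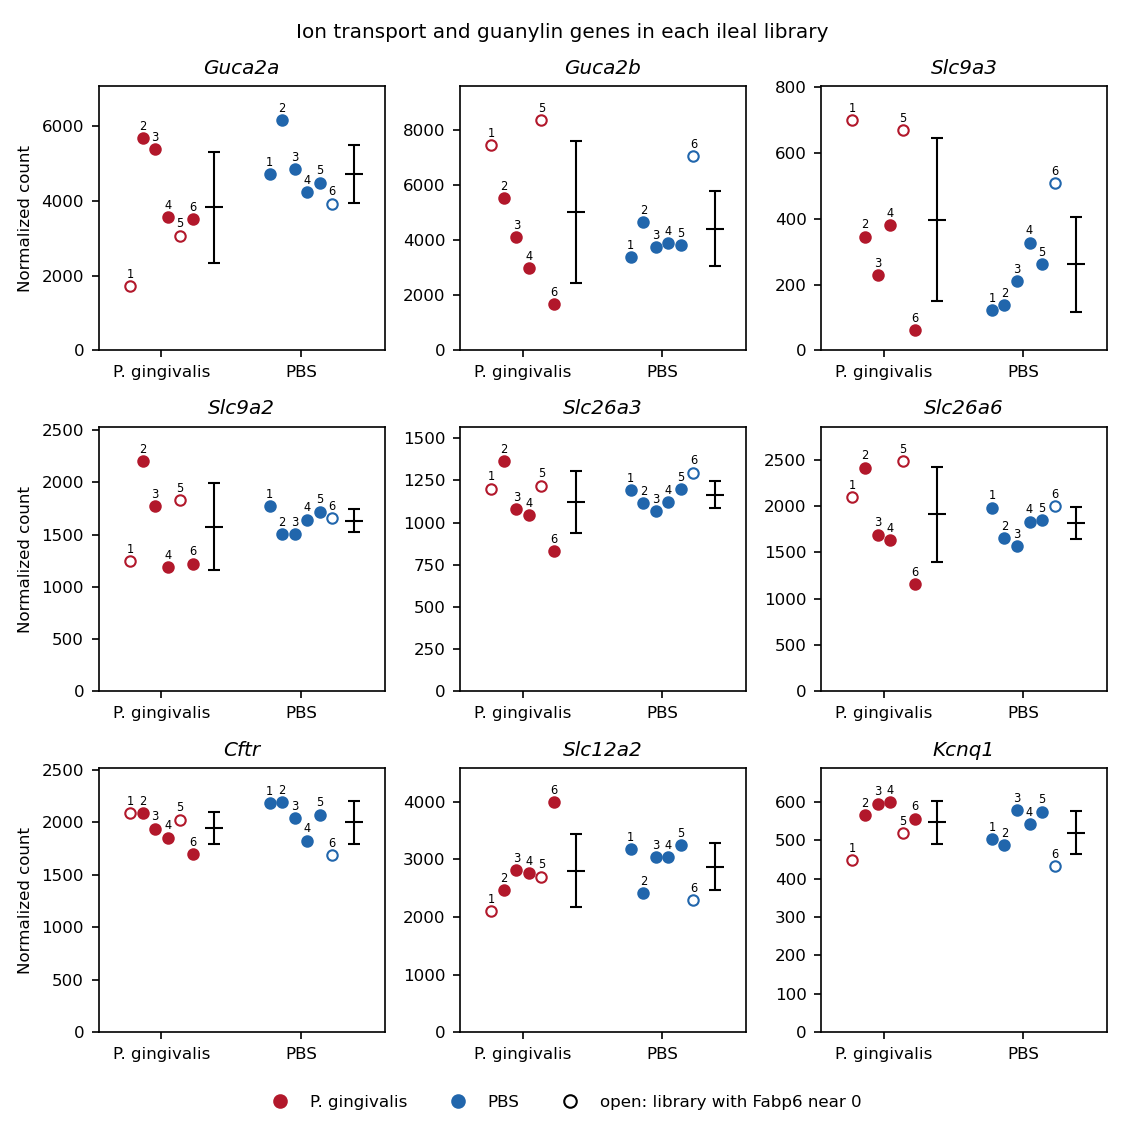
Normalized counts of the 9 genes in each library, with P. gingivalis on the left and PBS on the right; numbers are replicates, open points are the 3 libraries with Fabp6 near 0, and bars give the mean ± SD (n = 6 per group). Guca2b and Slc9a3 are highest in the open points, while Cftr and Kcnq1 vary little.

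The peptides come first. Guca2a, which encodes guanylin, had a lowest value of 1724, a median of 3543 and a highest value of 5678 normalized counts after P. gingivalis. In PBS its lowest, median and highest values were 3926, 4597 and 6148. P. gingivalis replicate 1 was the lowest library of all, and replicates 4, 5 and 6 of that group were also under every PBS library, while replicates 2 and 3 lay well inside the PBS range. Guca2a averaged 3824 ± 1483 after P. gingivalis and 4725 ± 772 in PBS (SD, n = 6 each). This was a log2 difference of -0.39 (standard error (SE) 0.24, 95% interval -0.92 to 0.13) and did not pass (limma adjusted p = 0.992). Of 6 markers of goblet cells, Tff3, Zg16, Clca1 and Spink4 differed by -0.38, -0.41, -0.35 and -0.18. Muc2 and Fcgbp differed by 0.26 and 0.06, and none of the 6 passed. The part of goblet cells in the Guca2a values was not tested. Without the 3 libraries low in Fabp6 the Guca2a difference was -0.13 (SE 0.18), and without P. gingivalis replicate 1 alone it was -0.18. It was larger without P. gingivalis replicate 2, at -0.53 (limma unadjusted p = 0.0404, adjusted p = 0.728), without P. gingivalis replicate 3, at -0.51, and without P. gingivalis replicates 2 and 4, the libraries rich in 18S ribosomal RNA, at -0.56 (limma unadjusted p = 0.0496, adjusted p = 0.876).

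Guca2b, which encodes uroguanylin, had a lowest value of 1669, a median of 4818 and a highest value of 8347 normalized counts after P. gingivalis. In PBS the lowest, median and highest values were 3382, 3851 and 7056. The highest values were those of the 3 libraries low in Fabp6, at 7451 and 8347 in P. gingivalis replicates 1 and 5 and 7056 in PBS replicate 6. The other 9 libraries lay between 1669 and 5524, and P. gingivalis replicate 6 was the lowest. Guca2b averaged 5016 ± 2584 after P. gingivalis and 4422 ± 1356 in PBS (SD, n = 6 each). The log2 difference of 0.03 (SE 0.34, 95% interval -0.70 to 0.77) did not pass (limma adjusted p = 0.998). Its sign turned to -0.25 (SE 0.28) without the 3 libraries.

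Because both peptides share a receptor, their ratio was taken within each library, where scaling between libraries cancels. After P. gingivalis there were 4.32, 0.973, 0.764, 0.839, 2.72 and 0.475 Guca2b counts per Guca2a count in replicates 1 to 6. In PBS the same ratio was 0.719, 0.757, 0.771, 0.919, 0.849 and 1.80. Uroguanylin counts exceeded guanylin counts only in the 3 libraries low in Fabp6, and guanylin counts were higher in the other 9. The log2 ratio averaged 0.30 ± 1.21 after P. gingivalis and -0.13 ± 0.49 in PBS (SD, n = 6 each), a gap smaller than either SD. These are count ratios, since the genes differ in length.

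**Figure D2:**
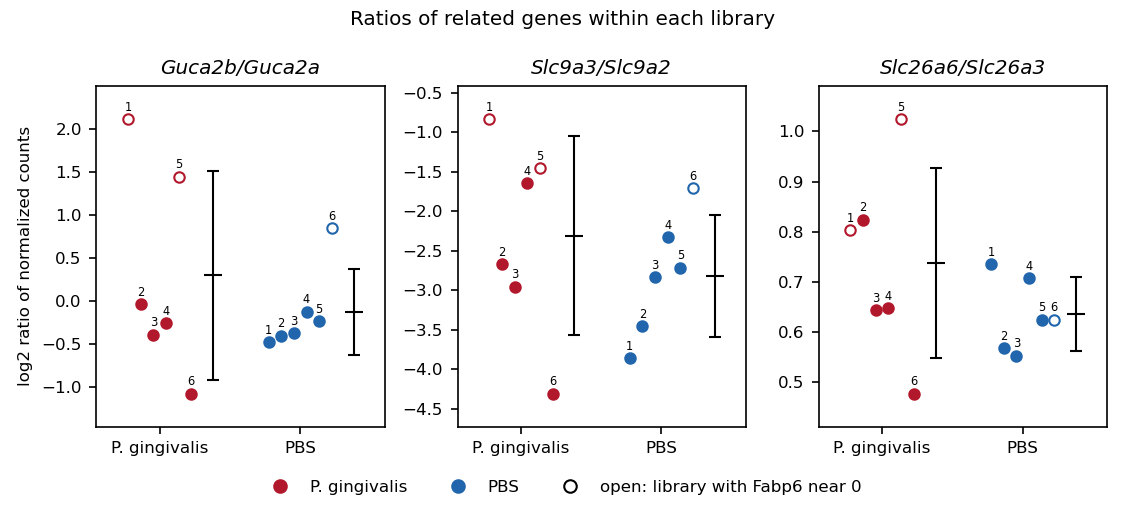
Log2 ratios of normalized counts within each library for Guca2b to Guca2a, Slc9a3 to Slc9a2 and Slc26a6 to Slc26a3, with P. gingivalis on the left and PBS on the right; numbers are replicates, open points are the 3 libraries with Fabp6 near 0, and bars give the mean ± SD (n = 6). The open points are the only ones above 0 in the guanylin panel, from 0.85 to 2.11.

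Among the sodium exchangers, Slc9a3 varied most of all 9 genes. It encodes the villus sodium-hydrogen exchanger that guanylin signalling inhibits. Its values after P. gingivalis were 700, 346, 229, 381, 671 and 61.8 normalized counts in replicates 1 to 6. In PBS they were 122, 137, 211, 328, 263 and 510. The highest library held 11.3 times the count of the lowest, and the libraries with the 3 highest values were those low in Fabp6. Slc9a3 averaged 398 ± 249 after P. gingivalis and 262 ± 144 in PBS (SD, n = 6 each). The log2 difference of 0.42 (SE 0.53, 95% interval -0.71 to 1.55) did not pass (limma adjusted p = 0.992). It was 0.07 (SE 0.49) without the 3 libraries low in Fabp6 and 0.18 without P. gingivalis replicate 1. Without P. gingivalis replicate 6 it was 0.88 (SE 0.37, limma unadjusted p = 0.0332, adjusted p = 0.549). The lowest Slc9a3 value rested on 71 reads, the smallest count behind any value of the 9 genes.

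Slc9a2 encodes a second apical sodium-hydrogen exchanger and did not follow Slc9a3. After P. gingivalis its lowest, median and highest values were 1190, 1509 and 2201 normalized counts, and in PBS they were 1502, 1652 and 1772. The P. gingivalis libraries spread on either side of the narrow PBS range, with replicates 1, 4 and 6 below it and replicates 2 and 5 above it. Replicate 3 was level with the top of that range, at 1773 against 1772. The SD was 419 after P. gingivalis and 111 in PBS (n = 6 each), and this difference in spread was not tested. The log2 difference of the means was -0.09 (SE 0.15, 95% interval -0.41 to 0.23, limma adjusted p = 0.992). There were 0.0505 to 0.562 Slc9a3 counts per Slc9a2 count after P. gingivalis and 0.0689 to 0.307 in PBS.

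Slc26a3 and Slc26a6 encode apical anion exchangers that bring chloride in for bicarbonate, the counterparts of the sodium exchangers in salt absorption. Slc26a3 had lowest, median and highest values of 832, 1140 and 1361 normalized counts after P. gingivalis and 1068, 1155 and 1295 in PBS. P. gingivalis replicate 6 was the lowest library for Slc26a3, and the other 11 lay between 1043 and 1361. Its log2 difference was -0.07 (SE 0.11, 95% interval -0.30 to 0.17, limma adjusted p = 0.992). Slc26a6 had lowest, median and highest values of 1158, 1892 and 2479 after P. gingivalis and 1567, 1839 and 1996 in PBS. It was again lowest in P. gingivalis replicate 6, and highest in P. gingivalis replicates 5 and 2. Its log2 difference was 0.03 (SE 0.16, 95% interval -0.32 to 0.39, limma adjusted p = 0.996), and -0.09 (SE 0.18) without the 3 libraries low in Fabp6. The ratio of Slc26a6 to Slc26a3 counts stayed within 1.39 to 2.03 after P. gingivalis and 1.47 to 1.67 in PBS.

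Of the secretory genes, Cftr and Kcnq1 varied little between libraries. Cftr, the chloride and bicarbonate channel opened by cyclic nucleotides, had lowest, median and highest values of 1698, 1983 and 2091 normalized counts after P. gingivalis and 1688, 2056 and 2189 in PBS. Its highest library held 1.30 times the count of its lowest, the narrowest range of the 9 genes. The log2 difference was -0.03 (SE 0.09), and its 95% interval ran from -0.23 to 0.16 (limma adjusted p = 0.994). Kcnq1 had lowest, median and highest values of 447, 560 and 598 after P. gingivalis and 433, 522 and 578 in PBS. It was lowest in PBS replicate 6 and P. gingivalis replicate 1, and the log2 difference was 0.07 (SE 0.10, 95% interval -0.13 to 0.28, limma adjusted p = 0.992). Slc12a2 had lowest, median and highest values of 2096, 2730 and 3985 after P. gingivalis and 2290, 3037 and 3242 in PBS. It was highest in P. gingivalis replicate 6, where Guca2b was lowest, and lowest in P. gingivalis replicate 1 and PBS replicate 6. P. gingivalis replicate 5, the library highest in Guca2b, held 2701 Slc12a2 counts, inside the range of the remaining libraries. The log2 difference of Slc12a2 was -0.05 (SE 0.15, 95% interval -0.36 to 0.27, limma adjusted p = 0.995).

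**Figure D3:**
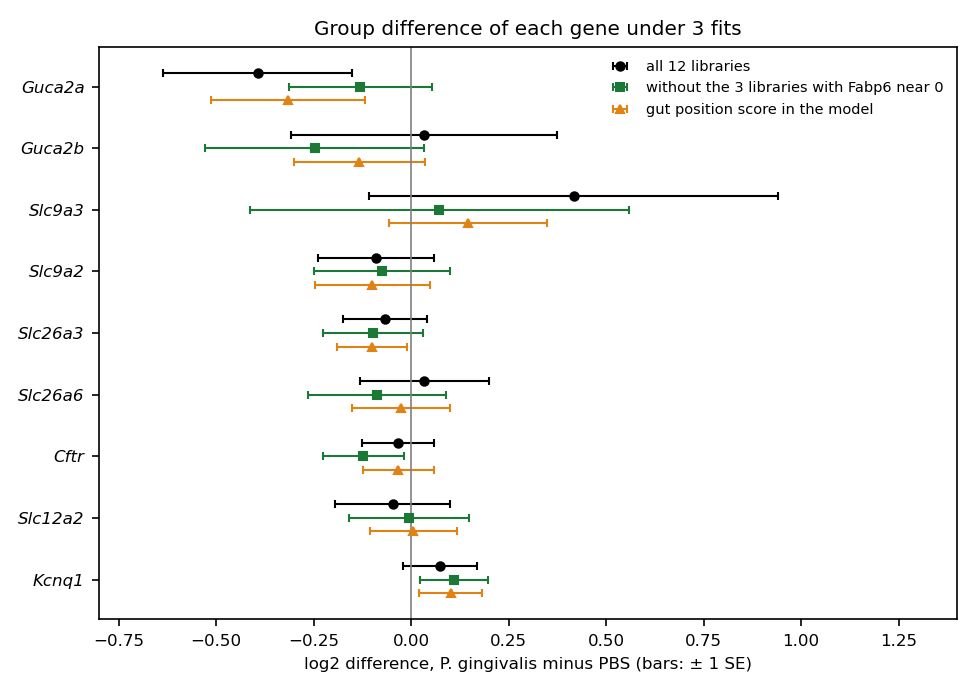
Log2 difference (P. gingivalis minus PBS) ± 1 SE for each gene, with all 12 libraries, without the 3 libraries with Fabp6 near 0, and with the gut position score in the model. With all libraries the SE is widest for Slc9a3 (0.53) and narrowest for Cftr (0.09).

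Each library was given a gut position score, the mean log2 level of 6 ileal markers minus that of 7 markers of the upper small intestine. All libraries carry the distal ileal label, and whether the score follows place along the gut was not tested. None of the 9 genes entered the score. It was -7.12, -0.52, 0.13, -0.34, -6.58 and 4.79 after P. gingivalis in replicates 1 to 6, and 2.13, 1.72, 0.0081, -1.25, 0.29 and -6.19 in PBS. The 12 libraries fall into separate clusters on this score, so no correlation is given. In P. gingivalis replicate 6, highest on the score, Lct stood at 0.87 and Gata4 at 0 normalized counts. Its ileal markers went both ways. Slc10a2 stood at 4007, against at most 3438 elsewhere. Fgf15 stood at 13.9, against at least 20.2 in the other libraries with Fabp6. Slc9a3 was high where the score was low, at 510 to 700 normalized counts in the 3 libraries low in Fabp6 and 61.8 in the library with the highest score. In PBS replicates 1 and 2, next highest on the score, Slc9a3 stood at 122 and 137. Guca2b and Slc9a3 were the members with all 3 libraries above the other 9, which held for 6.46% of all tested genes. All 3 lay below the other 9 for 0 members, against 4.93% of all tested genes. With the score in the model, the SE of the Slc9a3 difference was 0.20 in place of 0.53 and that of the Guca2b difference was 0.17 in place of 0.34. The differences were then 0.15 for Slc9a3 and -0.13 for Guca2b (limma adjusted p = 0.961 and 0.955), while Cftr stayed at -0.03 (SE 0.09). The score entered as a straight line over the same separate clusters, so a smaller SE is no test of gut position.

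**Figure D4:**
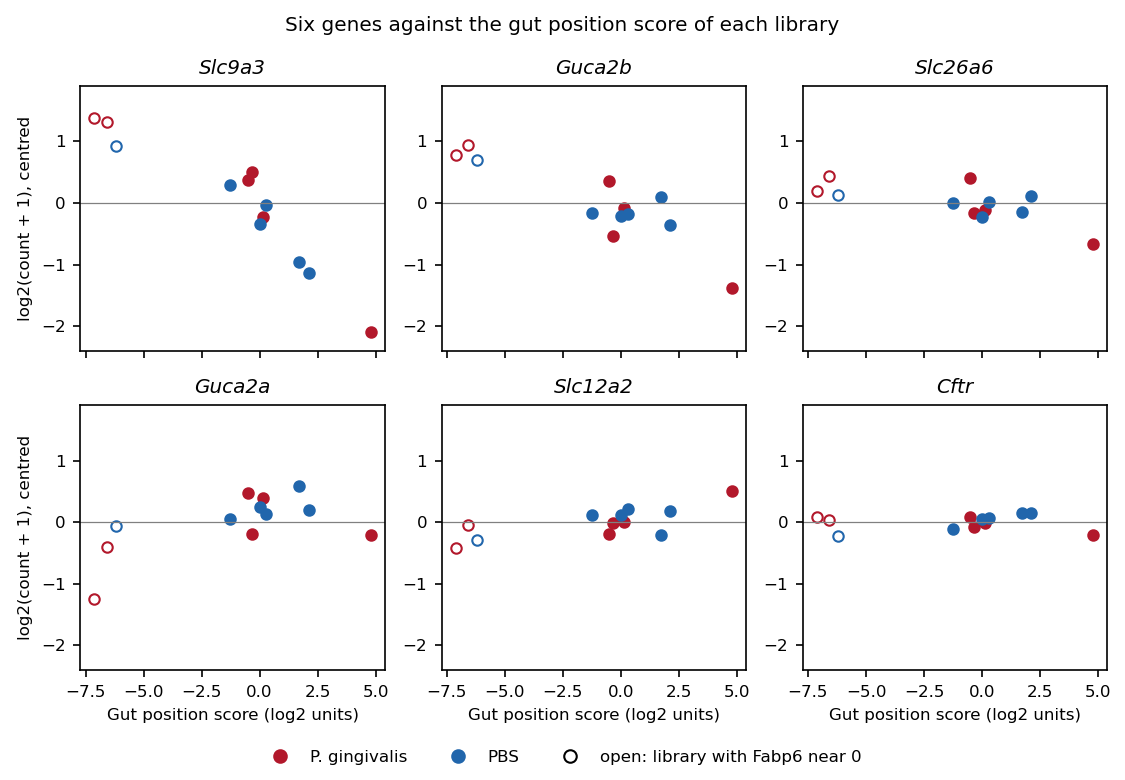
Centred log2(normalized count + 1) of 6 genes against the gut position score of each library, in log2 units; red points are P. gingivalis, blue points PBS, and open points the 3 libraries with Fabp6 near 0. Slc9a3 is high at low scores and lowest at the score of 4.79, while Cftr lies near its mean throughout.

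Levels of the 9 genes were compared with one another per kilobase of annotated exon. The peptides were far above the transporters. Guca2a averaged 6437 ± 2497 normalized counts per kilobase after P. gingivalis and 7954 ± 1300 in PBS, and Guca2b averaged 5766 ± 2971 after P. gingivalis and 5083 ± 1558 in PBS (SD, n = 6 each). Guca2a exceeded Guca2b in 9 of 12 libraries, and Guca2b exceeded every transporter in all 12. Over all 12 libraries Slc26a6 came next, at a mean of 344 counts per kilobase, followed by Slc12a2 at 260, Cftr at 254 and Slc9a2 at 230. Slc12a2 and Cftr could not be ordered beyond their spread, nor Cftr and Slc9a2, with 7 of 12 libraries in that order for each pair. Slc26a3 at 180, Kcnq1 at 130 and Slc9a3 at 59.9 counts per kilobase closed the list, each below its neighbour in 11 of 12 libraries. Exon lengths came from GENCODE M21, which may differ from the annotation the authors counted with.

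Slc9a3 and Guca2b spanned at least 2 log2 units, and the genes closest in pattern were sought for both. Each gene was centred on its mean over the 12 libraries and compared by its root mean square difference, among genes with a mean of at least 50. For Slc9a3 these were Entpd7, a nucleotide-hydrolysing enzyme, at 0.26 log2 units, Atp7b, a copper-transporting ATPase, at 0.29, and Slc5a9, a sodium-coupled sugar transporter, at 0.29. Slc9a3 itself had a root mean square deviation of 0.99. For Guca2b they were Prap1, a secreted acidic protein of the gut, at 0.12, Nat8, an N-acetyltransferase, at 0.12, and Smlr1 at 0.13, where Guca2b itself deviated by 0.62. Entpd7 stood at 2051, 1412, 800, 963, 1945 and 241 normalized counts in P. gingivalis replicates 1 to 6 and at 323, 554, 569, 757, 842 and 1454 in PBS. These likenesses describe the same 12 libraries and carry no test.

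The wider pathway was read from 4 lists. Of their genes, 67 were tested. By limma 0 were called higher and 0 were called lower, and 1 had an unadjusted p under 0.05. DESeq2 called 0 of 72 and edgeR 0 of 65, each with 1 at an unadjusted p under 0.05.

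In the list of anion and sodium exchangers, their membrane partners and carbonic anhydrases, 19 of 25 genes were tested, with a median log2 difference of 0.03. The 3 with the smallest p were Slc9a8, a further sodium-hydrogen exchanger, Pdzk1, a scaffold that binds apical transporters, and Car1, a carbonic anhydrase of the large bowel. Slc9a8 averaged 316 ± 32.5 after P. gingivalis and 284 ± 19.97 in PBS, a difference of 0.15 (SE 0.08). Pdzk1 averaged 2749 ± 988 after P. gingivalis and 3355 ± 373 in PBS, a difference of -0.36 (SE 0.20). Car1 differed by 1.86 (SE 1.25), with the 498 normalized counts of P. gingivalis replicate 6 against at most 2.71 in every other library. None of the 3 passed (limma adjusted p = 0.992 for each).

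In the list of secretory channels and their kinases, 18 of 21 genes were tested, with a median of -0.04. Kcnj13, a potassium channel, differed by -1.54 (SE 0.79), Ano1, a calcium-activated chloride channel also marking pacemaker cells of the gut wall, by -0.36 (SE 0.20), and Wnk1, a kinase upstream of chloride cotransporters, by 0.21 (SE 0.12). Kcnj13 stood at 1.26, 4.57 and 3.48 normalized counts in P. gingivalis replicates 1, 5 and 6, against a range of 19.3 to 84.1 over the remaining libraries.

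In the list of the sodium pump, sodium channel and water channels, 15 of 23 genes were tested, with a median of -0.09. Scnn1a, a subunit of the epithelial sodium channel, averaged 53.4 ± 11.6 after P. gingivalis and 38.5 ± 7.12 in PBS, a difference of 0.46 (SE 0.17). It had the unadjusted p under 0.05 counted above and did not pass over all genes (limma adjusted p = 0.992). The water channel Aqp4 differed by 0.18 (SE 0.10) and Nr3c2, the mineralocorticoid receptor, by -0.14 (SE 0.09).

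In the list of receptors and cyclic nucleotide signalling, 15 of 17 genes were tested, with a median of -0.0043. Chrm3, a muscarinic acetylcholine receptor, differed by -0.22 (SE 0.14), Pde2a, a cyclic nucleotide phosphodiesterase, by -0.23 (SE 0.16) and Prkar2a, a regulatory subunit of protein kinase A, by 0.18 (SE 0.14). Gucy2c, the guanylin receptor, and Prkg2, the cyclic GMP-dependent kinase through which it acts on Cftr, are added for their role, chosen after their values were seen. Gucy2c averaged 3078 ± 577 after P. gingivalis and 2963 ± 298 in PBS, a difference of 0.04 (SE 0.13). Prkg2 averaged 952 ± 443 after P. gingivalis and 804 ± 242 in PBS, a difference of 0.16 (SE 0.27). It was highest where Guca2b was highest, with 1412 and 1585 in P. gingivalis replicates 1 and 5 and 1286 in PBS replicate 6. The range over the remaining libraries was 544 to 896. All 3 of these libraries lay above the other 9 for 6.46% of all tested genes. In the 4 lists this also held for Adora2b and Slc4a7, among others. A link between Prkg2 and Guca2b was not tested.

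**Figure D5:**
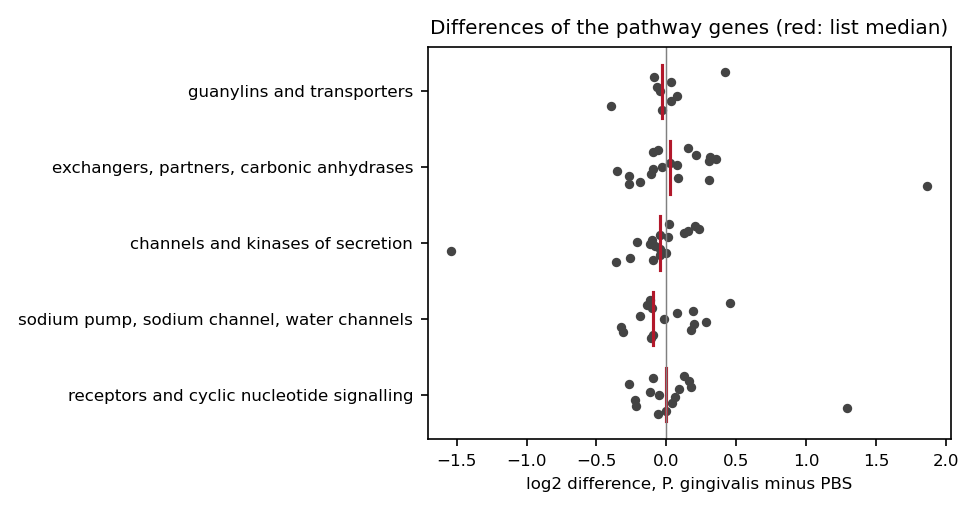
Log2 difference (P. gingivalis minus PBS) of every tested gene of the family and of the 4 pathway lists, 1 point per gene, with the list median in red. The medians lie between -0.09 and 0.03, and the points past 1 in size are Car1, Kcnj13 and Adora2b.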

How the data were processed

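The deposited values are a normalized signal. By the file name and the values, the authors scaled the count of each gene with 1 size factor per library. FastQC, HISAT2, Cufflinks and DESeq2, and the build GRCm38 (mm10), are listed in the submitters' processing notes. Roles, strand setting, counting method and annotation are not stated there. Every value was a whole multiple of 1 step per library, which gave whole reads for 100% of values within 0.001 reads. A total of 18583 genes had no reads, and 27 names had been turned into dates. No libraries were copies, with a smallest chi-square per degree of freedom of 6.53.

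The main test was limma 3.58.1 under R 4.3.3 (mean-variance trend, two-sided) on log2(normalized count + 1), for genes with a mean of at least 10, with Benjamini-Hochberg adjustment over all 15025 genes at 0.05. The pseudocount of 1 understates changes of low genes. The steps were tested on simulated data. DESeq2 1.42.0 and edgeR 4.0.16 were run on recovered reads. Genes named were the 9, the 3 of each pathway list with the smallest p, and the 3 closest in pattern. Members, lists and this rule were chosen with earlier results of these data known. The 95% intervals of differences come from the spread between libraries.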

Additional observations from a re-analysis of the deposited data

Results flagged for a closer look

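In 24 sets of 6 values (the 9 genes and 3 ratios in each group), 2 held a library far from the other 5. Chance gives about 1 in 20, so this is near the number that chance gives. Both were PBS replicate 6, and they are not separate, since the ratio holds the same Guca2b value. Its Guca2b stood at 7056 normalized counts, against 3382 to 4654 in the other PBS libraries, and its Guca2b to Guca2a ratio was 1.80, against 0.719 to 0.919. Fabp6 stood at 4.32 normalized counts in the same library.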

How the results depend on the processing

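Across 25 alternatives, 0 of 225 values of the 9 genes passed the threshold, with a lowest limma adjusted p of 0.549 for Slc9a3 without P. gingivalis replicate 6, and 0 pathway genes were called under any alternative run. The direction held for 204 of the values and turned for 21, while Guca2a, Slc9a3 and Kcnq1 kept theirs throughout. Without the 3 libraries low in Fabp6 the differences turned to -0.087 for Slc26a6 and -0.25 for Guca2b, without the 2 libraries rich in 18S ribosomal RNA (P. gingivalis replicates 2 and 4) to -0.017 for Slc26a6, and with the gut position score to -0.025 for Slc26a6, 0.0054 for Slc12a2 and -0.13 for Guca2b. Leaving out each library in turn gave -0.15 to 0.31 for Guca2b, -0.050 to 0.17 for Slc26a6, -0.15 to 0.031 for Slc12a2, -0.13 to 0.016 for Slc26a3, -0.082 to 0.0051 for Cftr, -0.53 to -0.18 for Guca2a and 0.18 to 0.88 for Slc9a3. It also gave -0.19 (without P. gingivalis replicate 2) to -0.017 (without P. gingivalis replicate 4) for Slc9a2, and 0.023 (without PBS replicate 6) to 0.13 (without P. gingivalis replicate 1) for Kcnq1. An alternative chosen after seeing the data, which left out P. gingivalis replicate 6 beside the 3 libraries, turned Slc26a3 to 0.020 and Slc9a2 to 0.038 and gave 0.65 for Slc9a3 and -0.019 (SE 0.18) for Guca2a. The cause was not tested.

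The count over all genes, 0 with limma, was 1 with a pseudocount of 5, 33 with DESeq2 (3 higher and 30 lower), 1 without the 3 libraries, 1 with the gut position score and 9 under the added alternative. Leaving out each library gave 0 to 53, with 53 without P. gingivalis replicate 6, 7 without PBS replicate 5 and 1 each without P. gingivalis replicate 2 or PBS replicate 6. Other pseudocounts, filters and rescalings gave 0. The correlation of deviations between libraries with the same number ran from -0.54 to 0.08, so the numbers do not pair the libraries. With the replicate block the count over all genes was 0 and Guca2a differed by -0.39. Depth limits Slc9a3 most, with 71 reads in its lowest library.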
